A study of Mus musculus with 29 samples.

Results

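The fatty acid synthesis programme of the liver was followed through 10 genes, taken by name from the 55421 genes of the count table: Srebf1, Fasn, Acaca, Acacb, Acly, Scd1, Elovl6, Me1, Thrsp and Pnpla3. The rule goes by gene name and holds no measured value, although the names were picked with earlier results of these data known. All 10 genes passed the filter on low counts in every comparison.

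Srebf1 encodes SREBP1, a transcription factor made as a membrane-bound precursor in the endoplasmic reticulum, carried by SCAP to the Golgi and cut there so that its active part can enter the nucleus. In hepatocytes insulin and the sterol-sensing receptor LXR raise its transcript, and the cleaved protein switches on the enzymes that turn citrate into saturated and monounsaturated fatty acids. The gene has more than 1 promoter, and the SREBP-1a and SREBP-1c transcripts cannot be separated in counts per gene. The transcript level also says nothing of how much SREBP1 was cleaved.

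The samples were whole livers of vehicle- and HDM201-treated mice, HDM201 being an inhibitor that blocks the binding of MDM2 to p53. Old females (20 months) and old males (24 months), both labelled C57BL/6J, received HDM201 at 10 mg/kg or vehicle by gavage once a day for 14 days. Young mice of 5 months, labelled C57BL6/N, received vehicle, so age and substrain change together in every comparison of old with young mice, and in the old mice sex and age change together. Counts covered 4 old vehicle females, 5 old HDM201 females, 5 young vehicle females, 4 old vehicle males, 5 old HDM201 males and 4 young vehicle males, 27 mice in all. Food was freely available, and both gavage and killing took place in the morning at hours not given in the sources used here.

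Total counts ran from 16485900 to 23570458 per mouse with a median of 19149235. The sex-linked transcripts fitted the label of every mouse with counts. Nnt, a gene with a partial deletion in C57BL/6J, was low under both substrain labels and did not separate them, at 2.24 to 4.42 CPM (read counts scaled to library size) in young and 2.19 to 2.92 in old vehicle females, and at 2.39 to 3.67 in young and 1.61 to 2.39 in old vehicle males. Mdm2, itself a p53 target, was at 25.5 to 27.8 CPM in old vehicle females against 29.3 to 38.0 in old HDM201 females, with overlapping ranges in old males (29.6 to 35.8 against 31.9 to 35.4). Hepatocyte markers summed to between 84787 and 167749 CPM per mouse, as the label liver asks. Adipocytes use the same enzymes, but their defining markers were near 0: Adipoq, Plin1, Lep, Retn and Ucp1 reached at most 0.227 CPM in any mouse and Cfd at most 1.38 CPM. The 8 adipocyte markers summed to 7.96 to 20.0 CPM per mouse, most of it from Fabp4 and Adrb3. In whole tissue, fewer cells of a type and less RNA per cell cannot be told apart.

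Levels per transcript length spread widely among the 10 genes. By group mean FPKM, Scd1, the desaturase that makes oleate and palmitoleate, was highest at 1170 to 3418, followed by Thrsp at 280 to 1264 and Fasn at 211 to 690. Srebf1 lay between 120 and 181, Acaca between 12 and 29.8, and Pnpla3 between 2.50 and 40.7. Pnpla3 was the lowest of the 10 genes in young females and in every male group, and Acaca was the lowest in both old female groups. Between groups, the mean CPM of Srebf1 varied least, 1.38-fold from lowest to highest, and that of Pnpla3 most, 20.5-fold. Young vehicle females had the highest group mean for 8 of the 10 genes, and old vehicle females for the remaining pair, Srebf1 and Pnpla3. Young vehicle males had the lowest mean for 4 genes, old HDM201 females for 3, old HDM201 males for 2 and old vehicle males for 1. Within a group the mice often spread over more than the distance to the next group in this order, so the order is a description of means.

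**Figure D1:**
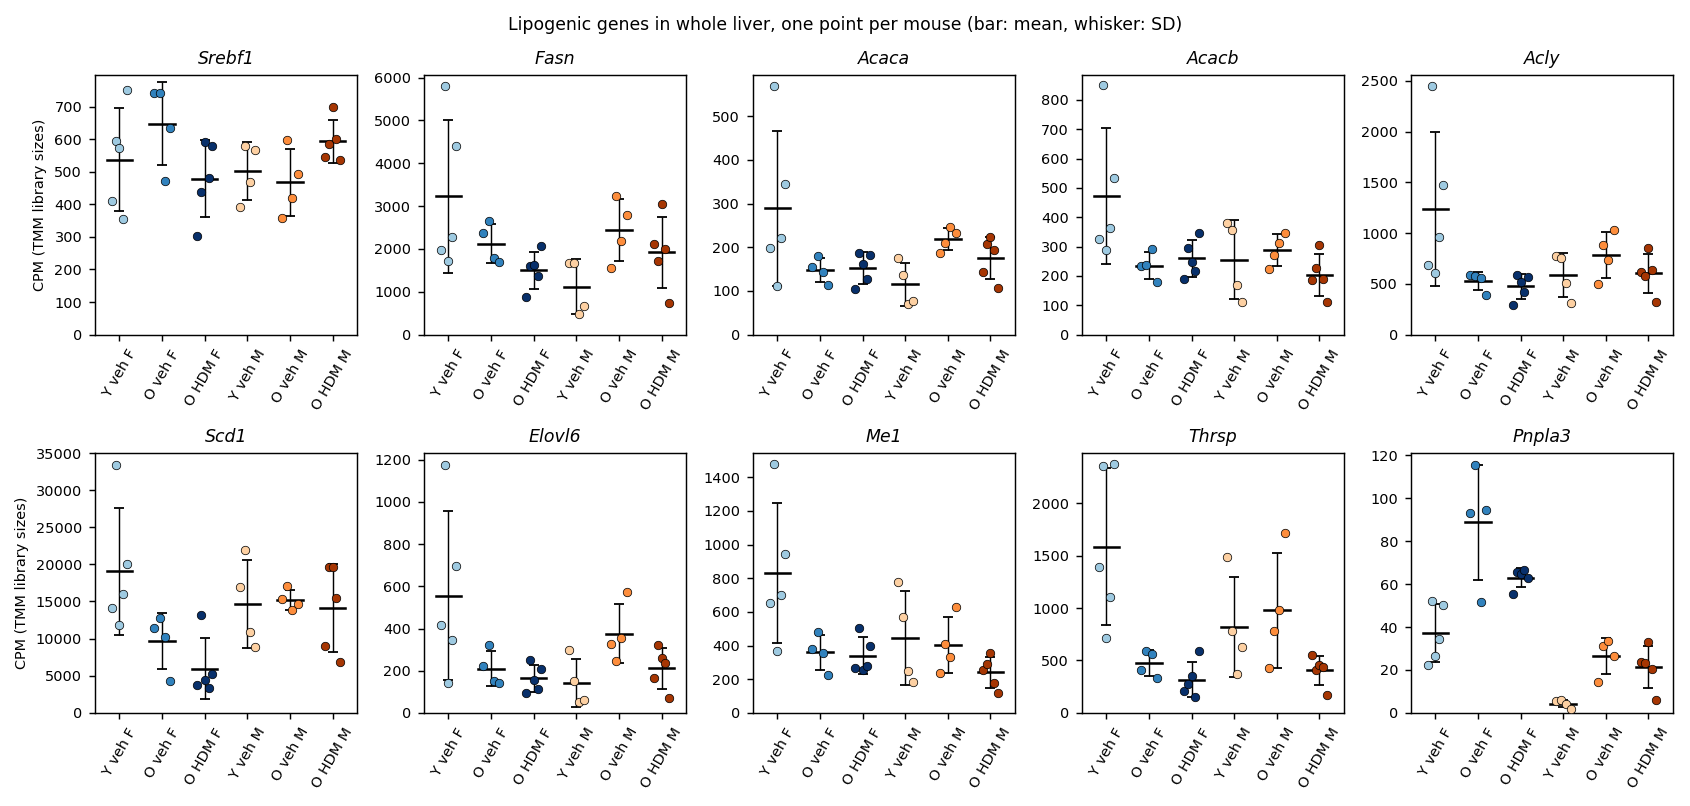
CPM of the 10 lipogenic genes (vertical axis, from 0) in each mouse of the 6 groups (Y young, O old, veh vehicle, HDM HDM201, F female, M male), with the mean as a bar and the SD as a whisker. Young vehicle females have the highest mean in 8 panels and spread the most, while Pnpla3 is highest in old vehicle females at a mean of 88.8 CPM and lowest in young vehicle males at 4.33 CPM.

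Of the 10 genes, 9 had a promoter entry in RefSeq (GRCm38.p6), with 12 start sites in all. Upstream sequences are given for Fasn, the central enzyme, and for Thrsp and Pnpla3, which had the largest differences, because SREBP1 acts at lipogenic promoters together with NF-Y, which binds the box CCAAT. Each run holds the 250 bases before the start site, written 5′ to 3′ on the strand of the gene, with CCAAT or its reverse complement ATTGG in capitals. Fasn lies on the minus strand of chromosome 11 (chr11:120824548-120824797), Thrsp on the minus strand of chromosome 7 (chr7:97417551-97417800) and Pnpla3 on the plus strand of chromosome 15 (chr15:84167566-84167815). In the GENCODE annotation of the same build all 10 genes are protein-coding, and the genes span chr11:120805846-120824547 (Fasn), chr7:97412938-97417730 (Thrsp) and chr15:84167837-84187236 (Pnpla3), the annotated start of Thrsp lying inside the printed window. Srebf1 (chr11:60199089-60222581), Acaca and Acly share chromosome 11 with Fasn.
Fasn: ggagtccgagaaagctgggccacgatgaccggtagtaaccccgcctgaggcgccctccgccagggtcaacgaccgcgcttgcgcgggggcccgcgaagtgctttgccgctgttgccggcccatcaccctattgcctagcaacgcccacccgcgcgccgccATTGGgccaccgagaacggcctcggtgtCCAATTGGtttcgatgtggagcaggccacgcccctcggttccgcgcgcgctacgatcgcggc
Thrsp: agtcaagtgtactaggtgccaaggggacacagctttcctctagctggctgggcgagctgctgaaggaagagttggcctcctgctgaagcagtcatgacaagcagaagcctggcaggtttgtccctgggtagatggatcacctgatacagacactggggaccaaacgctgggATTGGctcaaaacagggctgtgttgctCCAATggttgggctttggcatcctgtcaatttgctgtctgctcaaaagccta
Pnpla3: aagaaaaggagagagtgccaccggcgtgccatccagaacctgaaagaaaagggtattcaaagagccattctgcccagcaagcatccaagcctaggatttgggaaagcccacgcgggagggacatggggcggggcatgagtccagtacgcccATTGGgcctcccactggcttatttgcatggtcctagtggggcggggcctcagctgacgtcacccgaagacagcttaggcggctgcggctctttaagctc

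The Fasn window held 3 such boxes, a CCAAT and an ATTGG sharing bases in the longer run of capitals. The Thrsp window held 2, both inside the gene by the GENCODE start that lies in this window, and the Pnpla3 window held 1. CCAAT, searched on both strands, occurred at 7 of the 12 start sites, in Acacb, Fasn, Me1, Pnpla3, Srebf1 and Thrsp, and in 33.8% of the 32851 mouse promoters of the same length. GGGCGG, the core of a GC box bound by SP1, occurred at 5 of the 12 start sites and in 32.7% of promoters. Neither the sterol response element written as TCACNCCAC (1.05% of promoters) nor the E-box CACGTG (6.02%) was found at any of the 12. Matches to different motifs may share bases, and a match describes these windows only.

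The first question was how the programme differs between old and young vehicle mice. In females, most of the enzymes were lower in old animals while Pnpla3 was higher. By edgeR's quasi-likelihood test with Benjamini-Hochberg adjustment over all genes (FDR under 0.05), 7 of the 10 genes passed, 6 lower and 1 higher in old females. Of the 14233 genes tested 31.8% passed, 15% lower and 16.8% higher. The median log2 difference (old minus young) was -0.97 over the 10 genes and 0.0094 over all genes tested. CPM ranges of old and young females did not overlap for 2 of the 10 genes, Acly and Thrsp, and for 25.8% of all genes.

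Among the genes that supply carbon and reducing power, Acly, which cleaves citrate to cytosolic acetyl-CoA, was at 682, 2454, 610, 966 and 1476 CPM in young females 1 to 5. In old vehicle females 1 to 4 it was at 583, 577, 554 and 390 CPM, all below the lowest young female. The log2 difference was -1.21 with a standard error (SE) of 0.35 (FDR 0.0185, edgeR). Me1, the cytosolic malic enzyme that yields NADPH, was at 654, 1477, 370, 701 and 946 CPM in young and at 377, 479, 358 and 223 CPM in old females. Only young female 3 fell within the old range, and the log2 difference was -1.19 (SE 0.33, FDR 0.0152, edgeR).

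The 2 acetyl-CoA carboxylases make malonyl-CoA, Acaca in the cytosol for synthesis and Acacb at the mitochondrial surface, where malonyl-CoA restrains fatty acid entry. Acacb fell in old females, from 325, 849, 287, 363 and 533 CPM in young to 232, 238, 290 and 180 CPM in old animals, by 0.99 on the log2 scale (SE 0.28, FDR 0.0176, edgeR). Acaca ran from 112 to 570 CPM in young and from 113 to 179 CPM in old females, and its log2 difference of -0.95 (SE 0.36) did not pass (FDR 0.0594, edgeR). Fasn, the synthase that builds palmitate from malonyl-CoA, was at 1964, 5805, 1720, 2282 and 4396 CPM in young and at 2373, 2649, 1791 and 1683 CPM in old females. The ranges overlapped, and the log2 difference of -0.59 (95% interval -1.29 to 0.11) did not pass (FDR 0.187, edgeR).

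Downstream of Fasn, Elovl6 extends palmitate to stearate. It was at 418, 1176, 144, 345 and 698 CPM in young and at 221, 321, 152 and 141 CPM in old females, a log2 difference of -1.39 (SE 0.47, FDR 0.0384, edgeR). Scd1 was at 14151, 33445, 11851, 16004 and 20003 CPM in young and at 11455, 12766, 10243 and 4316 CPM in old females, a log2 difference of -0.96 (SE 0.33, FDR 0.0416, edgeR). For both genes young female 2 was the highest animal.

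Thrsp, also called Spot 14, is a small nuclear and cytosolic protein that rises with thyroid hormone and carbohydrate feeding. It showed the largest drop of the 10 genes in females. Young females 1 to 5 had 1393, 2354, 710, 1103 and 2370 CPM and old vehicle females 1 to 4 had 410, 593, 562 and 333 CPM, so that no old female reached the lowest young one. The log2 difference was -1.72 (SE 0.32, FDR 0.00193, edgeR).

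Pnpla3, a lipid-droplet acylhydrolase and transacylase whose gene SREBP1 controls, went the other way. It was at 22.2, 52.3, 26.6, 34.7 and 50.2 CPM in young and at 93.4, 116, 51.9 and 94.6 CPM in old vehicle females, a log2 difference of 1.27 (SE 0.26, FDR 0.00314, edgeR). Of the old females, only number 3 lay inside the young range. Srebf1 itself was at 411, 596, 574, 354 and 752 CPM in young and at 742, 743, 472 and 634 CPM in old females. Its ranges overlapped and the log2 difference of 0.29 (95% interval -0.15 to 0.72) did not pass (FDR 0.298, edgeR), so the lower enzymes of old females stood beside a Srebf1 transcript whose fitted level was not lower.

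The number of genes called depended on single mice. Without old vehicle female 4 it was 3 (Me1, Thrsp and Pnpla3), Acacb and Acly moving to FDR 0.054 and 0.0553 (edgeR). Scd1 and Elovl6 also lost their call without old vehicle female 1, 3 or 4 or young female 2 or 5, and limma on FPKM called only Thrsp and Pnpla3. DESeq2 called 5 genes, 4 lower and 1 higher, with Scd1 and Elovl6 no longer passing.

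**Figure D2:**
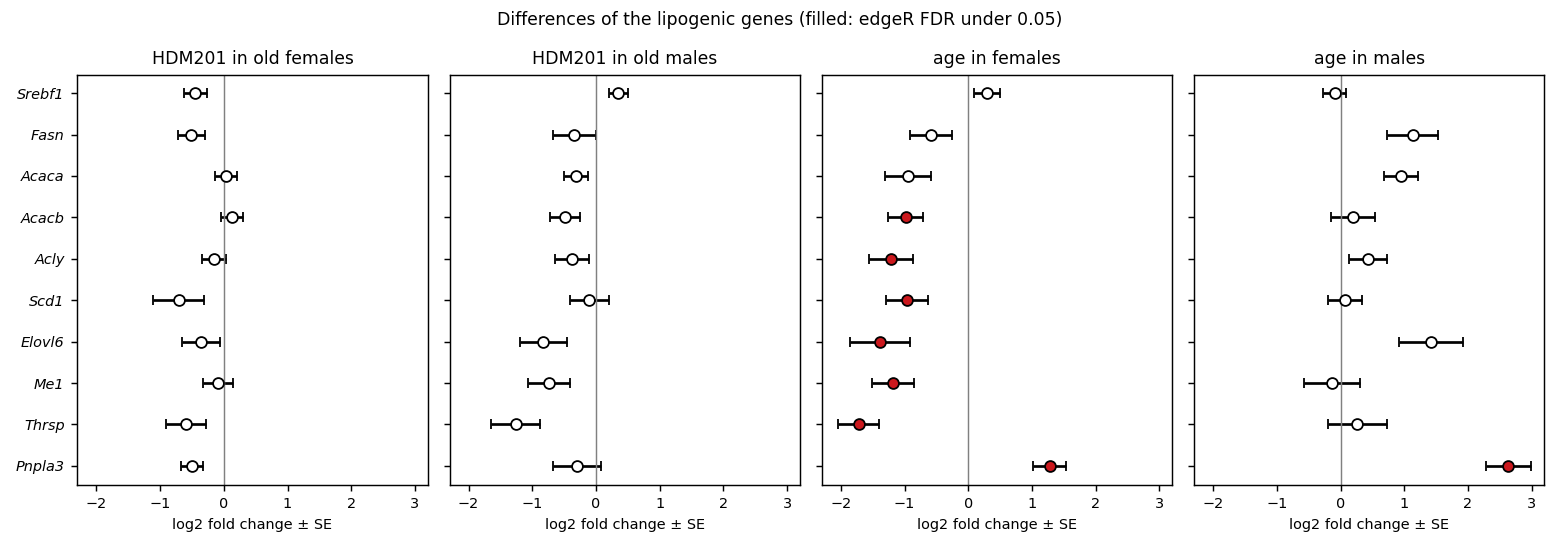
Log2 fold change with its standard error (horizontal axis) of the 10 lipogenic genes in 4 comparisons, HDM201 minus vehicle in old females and old males and old minus young in females and males, with filled points for FDR under 0.05 by edgeR. Filled points number 7 in the panel of age in females and 1 (Pnpla3, 2.63) in that of age in males, with none in the HDM201 panels.

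Other measures moved between the same female groups. Of 12 clock genes 8 passed, 5 lower and 3 higher in old females. Dbp, a clock output gene, was at 271, 211, 91.5, 95.7 and 129 CPM in young and at 9.95, 4.30, 61.9 and 7.39 CPM in old females, and the core clock gene Arntl was at 1.14, 0.616, 6.65, 11.2 and 1.23 CPM in young against 24.4, 29.4, 10.6 and 26.8 CPM in old females. Of 10 macrophage markers 9 passed as higher in old females, with sums of 240 to 367 CPM in young and 388 to 819 CPM in old animals. Hepatocyte marker sums overlapped (111930 to 122698 and 102249 to 128792 CPM), although 3 of those 10 markers passed as lower. Of the 8 adipocyte markers only Adrb3 and Fabp4 were tested, and both fell with no overlap, by 0.72 and 0.51 on the log2 scale (FDR 0.00696 and 0.0206, edgeR), the list summing to 12.9 to 15.9 CPM in young and 7.97 to 11.3 CPM in old females. The part of the clock genes and of the marker genes in the lipogenic differences was not tested.

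In males, most lipogenic genes did not pass the threshold between old and young vehicle animals, and Pnpla3 was again higher. It was at 5.36, 5.91, 4.24 and 1.82 CPM in young males 1 to 4 and at 14.5, 31.1, 33.5 and 26.7 CPM in old vehicle males 2 to 5, with no overlap. The log2 difference was 2.63 (SE 0.35, FDR 0.00577, edgeR). This was the only 1 of the 10 genes to pass, while 3.69% of the 13755 genes tested passed, 2.76% in the higher direction. Fitted levels were higher in old males for 8 of the 10 genes and lower for 2. The median log2 difference was 0.35 against -0.015 over all genes. An unadjusted p under 0.05 (edgeR) was found for 4 of the 10 genes and for 3007 of the 13755.

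The 2 males without counts have FPKM values that bear on Pnpla3 and on most of the other genes. The study's methods say that a young male was left out for a wound and suspected infection, and the sources used here do not say whether it is young vehicle male 5, or why old vehicle male 1 has no counts. Whether either library was left out for quality, or the pair exchanged, was not tested. Old vehicle male 1 had a Pnpla3 FPKM of 0.887, below the 6.71 to 13.5 of the other old vehicle males, and young vehicle male 5 had 5.00, above the 0.853 to 2.87 of the other young males. With these mice included, limma on log2(FPKM + 1) gave a difference of 1.39 that did not pass (adjusted p = 0.356), and over the mice with counts it gave 2.15 (adjusted p = 0.013). Old vehicle male 1 was the lowest old vehicle male for every gene but Thrsp, with Fasn at 223 FPKM against 368 to 773 and Scd1 at 1052 against 2450 to 3188. Young vehicle male 5 was the lowest young male for Srebf1, Me1 (20.4 FPKM against 69.1 to 270) and Thrsp (86.3 against 280 to 1162). For the remaining genes except Pnpla3 it lay within the range of the other young males.

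Acaca was at 174, 137, 69.4 and 78.0 CPM in young and at 188, 210, 247 and 231 CPM in old vehicle males. These ranges did not overlap either, which held for 2 of the 10 genes and 13.6% of all genes, but the log2 difference of 0.94 (SE 0.27) did not pass (FDR 0.0746, edgeR). By FPKM, old vehicle male 1, which has no counts, had 14.2 for Acaca, inside the 6.83 to 17.4 of the young males. Elovl6 (1.42, SE 0.51, FDR 0.137, edgeR) and Fasn (1.13, SE 0.40, FDR 0.134, edgeR) had differences of like size with overlapping ranges. The 4 young males fell apart in these enzymes: Fasn was at 1660 and 1678 CPM in males 1 and 2 against 479 and 660 CPM in males 3 and 4. Srebf1 differed by -0.09 (95% interval -0.49 to 0.30, FDR 0.798, edgeR). Without young vehicle male 1, Acaca (FDR 0.0298) and Elovl6 (FDR 0.0349) also passed. All 10 macrophage markers had higher fitted levels in old males (median log2 difference 1.05 against -0.015 over all genes). Of them Trem2 (3.12), Lyz2 (1.81) and Cd68 (1.43) passed with no overlap (FDR 0.00831, 0.00977 and 0.0349, edgeR), and the sums were 111 to 227 CPM in young and 165 to 511 CPM in old males. Their part in the lipogenic values was not tested.

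The age effects of the sexes were then compared directly, as the effect in females minus that in males. Acaca alone passed, with a log2 difference of -1.88 (SE 0.51, FDR 0.0475, edgeR), and 3.92% of the 14721 genes tested passed, 1.9% in the lower direction. The call held in 3 of the 17 fits that left out 1 mouse, with FDR from 0.0158 to 0.0955 and differences from -2.16 to -1.48. The fits that kept it left out old vehicle male 2, young vehicle male 1 or young vehicle female 3. Of the 10 genes 9 had a negative difference, with a median of -1.49 against 0.00091 over all genes. An unadjusted p under 0.05 (edgeR) was found for 8 of the 10 and for 3160 of the 14721. Elovl6 was next to pass (-2.80, SE 0.78, FDR 0.0515, edgeR), followed by Thrsp (-1.97, SE 0.61, FDR 0.0713, edgeR). For Pnpla3, which edgeR called higher with age in each sex over the mice with counts, the difference was -1.35 (SE 0.48, FDR 0.107, edgeR). Of the adipocyte markers, Adrb3 passed the same test at -1.13 (FDR 0.036, edgeR). Of 12 clock genes 8 had a negative and 4 a positive difference (median -0.98), and 1 passed. Of 10 glycolysis and ChREBP targets 8 had a negative and 2 a positive difference (median -0.74), and none passed. The part of Adrb3 and of these lists was not tested.

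Between the sexes in young vehicle mice, every one of the 10 genes had a higher fitted level in females, with a median log2 difference of 1.00 against -0.0040 over all genes. Pnpla3 stood out at 8.61-fold (log2 3.11, SE 0.34, FDR 0.000161, edgeR), all 5 females above 22 CPM and all 4 males below 6 CPM. It was the only 1 to pass, where 10.5% of the 13875 genes tested passed and 5.63% were higher in females. The call held in all 9 fits that left out 1 mouse, with FDR from 0.000197 to 0.000738. Fasn also did not overlap between the sexes, with 1720 CPM in the lowest female and 1678 CPM in the highest male, and narrowly missed the threshold (log2 1.52, SE 0.45, FDR 0.0513, edgeR). Non-overlap held for 2 of the 10 genes and 12.8% of all genes. Without young vehicle male 1 the number called was 5 and without young vehicle female 3 it was 4, Fasn, Acaca and Elovl6 passing in both. Srebf1 differed by 0.08 (95% interval -0.36 to 0.53, FDR 0.83, edgeR). Of the 9 macrophage markers tested, 6 passed as higher in young females too, and their part was not tested.

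The next question was what HDM201 does in old liver. In old females none of the 10 genes passed with edgeR or DESeq2 or with limma on FPKM. With edgeR 5.25% of the 14445 genes tested passed. An unadjusted p under 0.05 (edgeR) was found for 3 of the 10 genes and for 3247 of the 14445. Fitted levels were lower for 8 genes, with a median log2 difference of -0.40 against 0.0010 over all genes. No gene had non-overlapping ranges, against 9.94% of all genes.

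Pnpla3 had the smallest p in old females. HDM201 females 1 to 5 had 55.6, 65.7, 64.5, 66.6 and 62.9 CPM, within the range of old vehicle females, and the log2 difference was -0.50 (SE 0.17, FDR 0.109, edgeR). Of the 4 vehicle females 3 lay above all 5 treated animals, and vehicle female 3, at 51.9 CPM, lay below them. Without that mouse Pnpla3 passed (-0.69, FDR 0.00554, edgeR). Srebf1 was at 302, 438, 592, 481 and 580 CPM in HDM201 females against 742, 743, 472 and 634 CPM with vehicle, a log2 difference of -0.44 (SE 0.19, FDR 0.18, edgeR). Fasn was at 866, 1593, 1614, 1369 and 2057 CPM with HDM201, a log2 difference of -0.51 (SE 0.21, FDR 0.172, edgeR).

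Scd1 turned on 1 animal. HDM201 females 1, 3, 4 and 5 had 3698, 4415, 3361 and 5175 CPM and female 2 had 13194 CPM, above every vehicle female. With all mice the log2 difference was -0.71 (SE 0.40, FDR 0.324, edgeR), and without HDM201 female 2 it was -1.23 (FDR 0.0362). Thrsp (-0.59), Elovl6 (-0.36), Acly (-0.16) and Me1 (-0.09) had negative differences, and Acacb (0.13) and Acaca (0.04) positive ones, all with FDR from 0.299 to 0.925 (edgeR). For Acly the 95% interval was -0.56 to 0.25 and for Acaca -0.34 to 0.42. Of 10 macrophage markers 8 passed as lower with HDM201 in these females, with sums of 242 to 403 CPM against 388 to 819 CPM. Among 12 clock genes 1 passed, Cry1 at -1.68 (SE 0.37, FDR 0.0264, edgeR). The part of either in the lipogenic values was not tested.

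In old males none of the 10 genes passed either, with edgeR, DESeq2 or limma on FPKM. With edgeR only 1 of 14109 genes did (0.00709%). An unadjusted p under 0.05 (edgeR) was found for 4 of the 10 genes and for 1710 of the 14109. Thrsp had the largest difference. HDM201 males 1 to 5 had 548, 407, 461, 441 and 173 CPM and vehicle males 2 to 5 had 428, 782, 981 and 1718 CPM, a log2 difference of -1.26 (SE 0.38, FDR 0.276, edgeR). Srebf1 was the only 1 of the 10 with a higher fitted level, at 546, 585, 700, 601 and 536 CPM with HDM201 and 360, 597, 421 and 495 CPM with vehicle (0.35, SE 0.14, FDR 0.379, edgeR). The median log2 difference was -0.36 against 0.014 over all genes. No gene had non-overlapping ranges, against 4.03% of all genes. HDM201 male 5 was the lowest treated male for all 10 genes, with 739 CPM of Fasn against 1717 to 3048 CPM in the other treated males. The same mouse had the lowest hepatocyte marker sum of all 27, 84787 CPM against 110857 to 159812 CPM in the other treated males, and a macrophage marker sum of 645 CPM against 244 to 362 CPM. The part of these in its values was not tested, and without it none of the 10 genes passed either. Glycolysis and ChREBP targets had fitted levels lower for 8 and higher for 2 genes in HDM201 than vehicle males (median log2 difference -0.40). Clock genes were lower for 8 and higher for 4 (median -0.46). None of either list passed, and their part was not tested.

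Srebf1 thus had opposite signs in the sexes, and the difference of its HDM201 effects (female minus male) was -0.79 on the log2 scale (SE 0.26, unadjusted p = 0.00689, FDR 0.122, edgeR). None of the 10 genes passed this test of the difference by edgeR, DESeq2 or limma on FPKM. By edgeR 0.107% of the 14974 genes tested passed. An unadjusted p under 0.05 (edgeR) was found for 1 of the 10 genes and for 2774 of the 14974. The interval for Srebf1 was -1.33 to -0.24, and for Fasn -1.07 to 0.75.

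Within groups, the enzymes moved together from mouse to mouse. Each mouse's log2(CPM + 1) was set against its group mean, and all 45 pairs of the 10 genes had a positive Pearson r across the 27 mice, from 0.185 to 0.940 with a median of 0.760. The 36 pairs without Srebf1 had r from 0.484 to 0.940 with a median of 0.779. Srebf1 with the other 9 gave r from 0.185 (Me1) to 0.515 (Fasn). For Fasn, Spearman's rho was 0.596 (permutation p = 0.00331, adjusted over the 9 relations 0.0298), Pearson's r had an adjusted permutation p of 0.0918, and r was 0.460 without the 2 mice farthest in Srebf1, old HDM201 female 1 and young vehicle female 4. None of the other 8 relations passed by either measure. The points share libraries, and genes in a mouse share its depth and composition. Young vehicle female 2 and young vehicle male 1 lay highest above their groups, and old HDM201 male 5 and young vehicle female 3 lowest below.

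**Figure D3:**
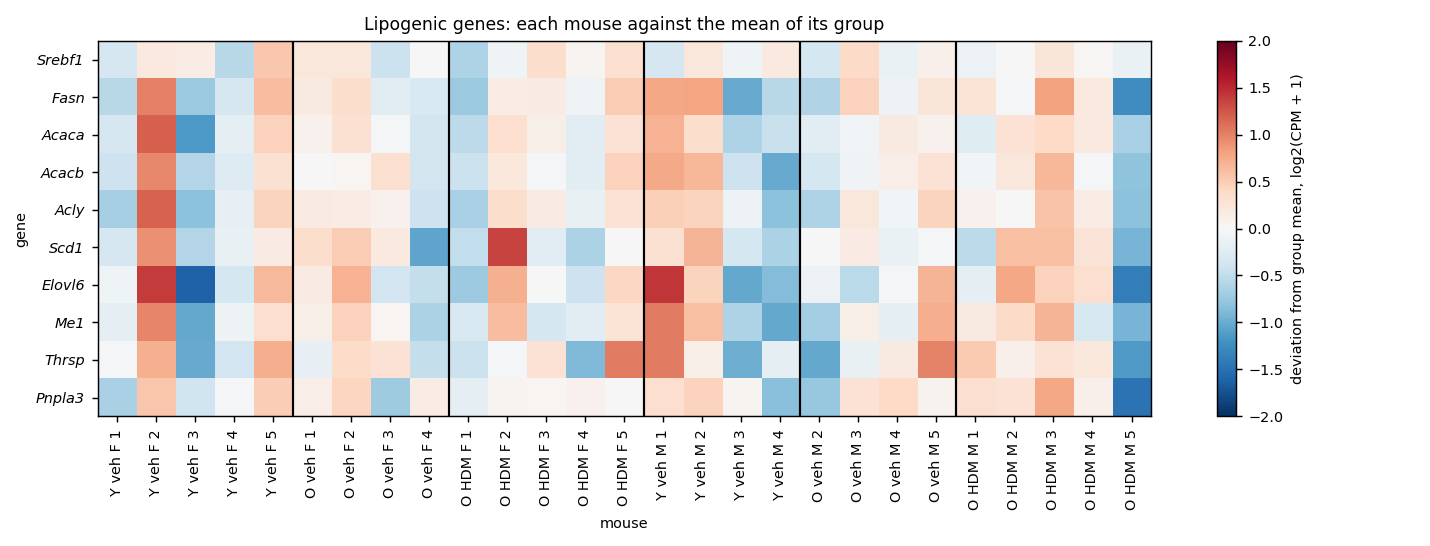
Deviation of each mouse (columns, 27 mice in 6 groups separated by lines) from the mean of its group in log2(CPM + 1), for the 10 lipogenic genes (rows), red above and blue below, with the colour scale ending at 2. Columns tend to be 1 colour from Fasn to Thrsp, as in old HDM201 male 5 and young vehicle female 2, while the Srebf1 row is paler.

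The 8 genes outside the 10 whose deviations were most like the mean standardised deviation of the 10, among 9626 genes with a mean of at least 5 CPM, were Acss2 (r = 0.882), Tkt (0.880), Pcyox1 (0.879), Gpam (0.869), Mr1 (0.856), Eno1 (0.841), Slc25a44 (0.834) and Gbe1 (0.833). Acss2 makes acetyl-CoA from acetate, Tkt is the transketolase of the pentose phosphate pathway, Gpam starts glycerolipid synthesis, Eno1 is an enolase of glycolysis and Gbe1 branches glycogen. These values are a description across 27 mice.

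Further genes of fatty acid synthesis, desaturation and elongation were read from the same fits, with HDM201 in old females first. Of 12 tested, 4 passed and all 4 were higher. Of all genes tested 5.25% passed in this comparison, and the counts of every list for HDM201 in old females stand beside that share. Fads2, a desaturase of polyunsaturated fatty acids, was at 885, 681, 816, 943 and 957 CPM with HDM201 and at 521, 551, 543 and 584 CPM with vehicle, with no overlap (log2 0.63, SE 0.10, FDR 0.0096, edgeR). Elovl2, an elongase of the same pathway, rose from a mean of 473 ± 22.4 CPM (SD, n = 4) to 671 ± 74.1 CPM (SD, n = 5), with FDR 0.0115 (edgeR). Fads1 (0.37, FDR 0.0392, edgeR) and the citrate importer Slc13a5 (1.33, FDR 0.0126, edgeR) were the others. Slc13a5 was scarce, at 1.46 to 2.60 CPM with vehicle and 3.43 to 7.06 CPM with HDM201.

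In the comparison of old with young females, which uses the same old vehicle females, 8 of the 12 passed, 6 lower and 2 higher. Of all genes tested 31.8% passed in this comparison, 15% lower and 16.8% higher, and the counts of every list for age in females stand beside that share. Acss2 fell by 1.41 on the log2 scale (SE 0.24, FDR 0.00108, edgeR), and the mitochondrial citrate carrier Slc25a1 fell by 0.45 and Fads2 by 0.60, while Scd2 was higher by 1.04 (FDR 0.00244, 0.00533 and 0.00279, edgeR). In young mice 2 of 12 differed by sex, against 10.5% of all genes. These were Elovl3 at -6.18 (FDR 6.14e-06, edgeR), from 1.42 CPM in females and 101 CPM in males on average, and Acss2 at 1.28 (FDR 0.0254, edgeR). None of the 12 passed for HDM201 in old males, for age in males or for either comparison of effects.

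**Figure D4:**
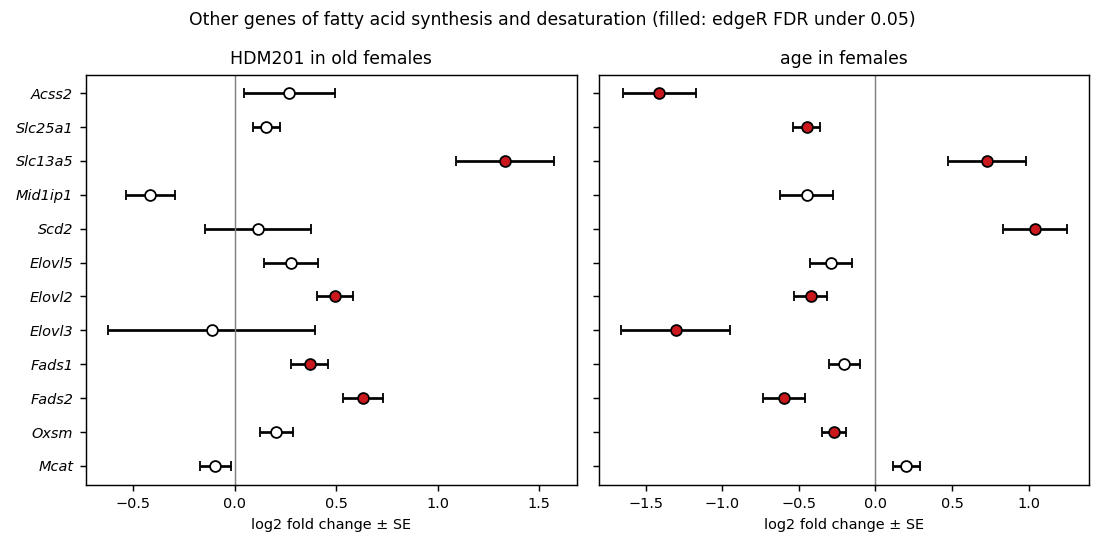
Log2 fold change with its standard error (horizontal axis) of 12 other genes of fatty acid synthesis and desaturation, HDM201 minus vehicle in old females (left) and old minus young vehicle females (right), with filled points for FDR under 0.05 by edgeR. Fads2 is higher with HDM201 (0.63) and lower in old than young females (-0.60), and both panels share the old vehicle females.

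SREBP is held in the endoplasmic reticulum by INSIG proteins and released for cleavage by SCAP. Of 9 genes of SREBP processing and its sterol targets, only Sqle passed with HDM201 in old females (0.35, FDR 0.0469, edgeR), and Scap, Insig1 and Insig2 did not. All 9 had higher fitted levels with HDM201 there, with a median log2 difference of 0.19 against 0.0010 over all genes. Ranges did not overlap for 4 of the 9, against 9.94% of all genes. In old against young females 4 of 9 passed, against 31.8% of all genes: the site-2 protease gene Mbtps2 fell by 0.58, Sqle by 0.63 and Scap by 0.45, and Srebf2 was higher by 0.27 (FDR 0.00319, 0.0124, 0.017 and 0.0352, edgeR).

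Among 16 genes of LXR, ChREBP and insulin control, none passed for HDM201 in either sex and 6 passed with age in females, 3 in each direction, against 31.8% of all genes. Ppargc1b, a coactivator of SREBP1, fell by 1.28 and Pparg, Irs1 and Irs2 were higher by 0.67, 0.76 and 0.87 (FDR 0.00445, 0.00265, 0.012 and 0.0121, edgeR). Of 7 LXR targets outside lipogenesis, 2 passed with HDM201 in old females, Abcg8 at 0.79 and Abcg1 at -0.78 (FDR 0.0321 and 0.0112, edgeR), and 4 with age in females, Abcg8 at -0.84, Abcg5 at -0.73, Lpcat3 at -0.36 and Abcg1 at 0.74 (FDR 0.00304, 0.00447, 0.0129 and 0.00328, edgeR).

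Glycolysis and ChREBP targets gave no call for HDM201 and 6 of 10 for age in females, 5 of them lower, among them the glucose transporter Slc2a2 at -0.87 and Khk at -0.64, with Pfkl higher at 0.41 (FDR 0.000575, 0.00689 and 0.000935, edgeR). Triglyceride assembly gave 6 of 9 for age in females, among them Dgat1 at -0.41, Dgat2 at -0.45, Lpin1 at -1.69 and Gpd1 at 0.57 (FDR 0.00203, 0.00514, 0.0114 and 0.0228, edgeR), and 1 of 9 for HDM201 in old females, Agpat3 at 0.31 (FDR 0.0467, edgeR). Among 8 genes of NADPH supply, Idh1 fell by 0.36 with age in females (FDR 0.0164, edgeR), and G6pdx was higher in young females than young males by 2.14 (FDR 0.0428, edgeR).

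Genes of the fasting response gave 2 of 12 for HDM201 in old females, Cpt1a, which carries fatty acids toward oxidation, at 0.70 (SE 0.14, FDR 0.0198, edgeR) and the hormone Fgf21 at 1.90 (SE 0.50, FDR 0.0491, edgeR). With age in females 8 of 12 passed, 6 higher and 2 lower, with Pdk4 at 1.67, Acot1 at 1.08, Cyp4a14 at 1.06 and Cpt1a at -0.57 (FDR 0.000424, 0.00382, 0.00449 and 0.00335, edgeR). The age effects on Acot1 (2.45, FDR 0.0111, edgeR) and Cyp4a14 (2.62, FDR 0.0465, edgeR) also differed between the sexes.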

How the data were processed

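Whole-liver RNA-seq of 29 labelled mice was used. Per the study's methods, the authors used STAR (2-pass, mm10), SAMtools for filtering and HTSeq for counts per gene. The deposited counts are raw whole numbers for 27 mice, without old vehicle male 1 and young vehicle male 5. The authors made FPKM values with Cufflinks, and the deposited FPKM table covers all 29 mice. Empty FPKM cells were read as 0 (where counts exist, 94.8% of them have a count of 0). Tool versions, and whether counting used the strand, are not given in the sources used here, so overlapping and antisense genes are uncertain.

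Counts were tested with edgeR 4.0.16 (R 4.3.3) by the quasi-likelihood F-test, with filterByExpr (minimum count 10, minimum total 15), TMM library sizes and Benjamini-Hochberg adjustment over all genes tested, threshold 0.05. Each of 7 comparisons was fitted on the whole table with the mice of its own groups. CPM used TMM sizes over all 27 mice. Alternatives were DESeq2 1.42.0 (which the study names), RLE factors, no filter, 1 fit of all groups, a replicate block, leaving out each mouse, and limma 3.58.1 on log2(FPKM + 1) or log2(FPKM + 0.1), FPKM mean at least 0.1. Limma on the mice with counts only was added after seeing the data. Scripts were tested on simulated data.

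Correlations used deviations from group means of log2(CPM + 1), with 100000 within-group permutations. Labels number the mice in each group, and nothing in them says that a number is shared. The labels do not give the cages or days of the mice.

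The 10 genes and 12 further lists were chosen with earlier results of these data known. Named from each further list are up to 4 genes with the lowest FDR among those passing, and the 8 genes most like the 10. Dbp, Arntl, Nnt, Scap, Insig1, Insig2 and Mdm2 were named after their values were seen or as checks. All 137 symbols were found. Some genes that the naming rule selects are not reported here. Promoter and gene positions are GRCm38.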

Additional observations from a re-analysis of the deposited data

Results flagged for a closer look

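Acly in old vehicle female 4, at 390 CPM, lay apart below the other 3 mice of its group at 554 to 583 CPM. Scd1 in old HDM201 female 2, at 13194 CPM, lay apart above the other 4 mice of its group at 3361 to 5175 CPM. These were the 2 mice standing apart among 60 gene and group pairs looked at, and chance alone sets apart about 1 group in 20.

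The age effect on Acaca differed between the sexes by -1.88 on the log2 scale over the mice with counts. Acaca was lower with age in females (-0.95) and higher in males (0.94). The direct test of the difference passed (FDR 0.0475, edgeR), while 14 of the 17 fits that left out 1 mouse did not pass.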

How the results depend on the processing

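Over the 7 comparisons each of the 10 genes was refitted under 7 other settings. Of the 490 log2 differences 426 kept their direction and their side of the threshold, 20 lost the call, 29 gained one and 15 changed sign. Of 790 from fits without 1 mouse the numbers were 724, 26, 21 and 19. In none of them did a gene pass for HDM201 in old males or for the sex difference of HDM201. RLE size factors changed no count of genes passing. DESeq2 called 5 genes for age in females against 7. Beside the 1 gene reported for age in males, sex in young mice and the sex difference of age, DESeq2 called 2, 2 and 3, and no filter on low counts called 3, 6 and 6. With all groups in 1 fit the last 2 comparisons gave 5 and 3. With no filter HDM201 in old females gave 1 gene (Pnpla3, FDR 0.0465). Limma on FPKM gave 2 genes for age in females with either pseudocount and over the mice with counts (Thrsp and Pnpla3), 0 for age in males with either pseudocount, and 0 for the sex difference of age in all 3 fits. The causes of these shifts were not tested.

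The replicate block took mouse number as a term. Deviations of same-numbered mice did not all correlate above 0.1 (from -0.277 to 0.268), and the main fits did not use the numbers as pairs. With 3 or 4 same-numbered pairs in a comparison, these correlations cannot decide whether a number is shared. With the block 1 gene passed for HDM201 in old females (Thrsp), 6 for age in females, 0 for age in males (Pnpla3 2.76, FDR 0.109, edgeR), 3 for sex in young mice and 1 for the sex difference of age (Elovl6 in place of Acaca). Whole-table counts with the block fell from 758 to 366 for HDM201 in old females, from 4530 to 3454 for age in females, from 507 to 29 for age in males, from 1462 to 858 for sex, from 16 to 0 and from 577 to 183 for the sex differences of HDM201 and age. DESeq2 called 1330, 162, 1318, 643 and 1187 genes where edgeR called 758 (HDM201 in old females), 1 (HDM201 in old males), 507 (age in males), 16 and 577 (the sex differences), and limma on log2(FPKM + 1) called 51, 1, 58, 0 and 220. The 1 fit of all groups called 208, 6, 2007, 11 and 852, and no filter on low counts 964, 22, 968, 122 and 641. For sex in young mice limma called 458 and the 1 fit 2483 against 1462.

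Signs changed among small differences. With the block the log2 difference was -0.047 for Acaca under HDM201 in old females, 0.14 for Me1 with age in males and -0.084 for Srebf1 between young sexes. With limma on FPKM (pseudocounts 1 and 0.1) it was -0.076 and -0.080 for Acaca under HDM201 in old females (-0.076 over mice with counts too), 0.18 and 0.18 for Scd1 and 0.24 and 0.35 for Pnpla3 under HDM201 in old males, -0.11 and -0.11 for Scd1 and 0.27 and 0.28 for Me1 with age in males, and -0.18 and -0.18 for Acly in the sex difference of HDM201.

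Without 1 mouse, 0 to 1 genes passed for HDM201 in old females, 3 to 8 for age in females, 1 to 3 for age in males, 1 to 5 for sex in young mice and 0 to 4 for the sex difference of age. The last gave 4 without young vehicle male 1 or young vehicle female 3, 2 without old vehicle male 2, 1 without old vehicle male 3, and 0 without each of the other 13 mice. Differences that changed sign ranged from -0.069 to 0.15 (Acaca) and -0.27 to 0.080 (Me1) for HDM201 in old females, from -0.25 to 0.069 (Scd1) for HDM201 in old males, and from -0.23 to 0.013 (Srebf1), -0.058 to 0.45 (Acacb), -0.12 to 0.31 (Scd1), -0.42 to 0.28 (Me1) and -0.14 to 0.72 (Thrsp) for age in males. For sex in young mice Srebf1 ranged from -0.058 to 0.21. For the sex difference of HDM201 Fasn ranged from -0.37 to 0.063 and Pnpla3 from -0.43 to 0.017. No correlation of Srebf1 passed by Pearson's r with a pseudocount of 0.1 or RLE sizes either. With 4 or 5 mice a group, a difference whose 95% interval includes 0 cannot be told from no difference, and true differences within such an interval may be missed.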
